A study of Homo sapiens with 8 samples.

Results

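Epithelial identity was followed in CAPAN-2 cells through 10 genes, of the 17240 gene symbols that could be given to the probes. They were chosen by name and by role: the adhesion molecules CDH1 and EPCAM, the epithelial regulators OVOL1, GRHL2, ELF3 and ESRP1, the mesenchymal proteins VIM and CDH2, and ZEB1 and SNAI2, transcription factors of the epithelial-mesenchymal transition (EMT). OVOL1 was also chosen because it was among the largest changes in the MUC4 experiment, so its values there are given as a description, with no test. CAPAN-2 is an established human pancreatic adenocarcinoma cell line. ErbB2-KD cells carried, after stable transfection, a puromycin vector that encodes an ErbB2 shRNA, and the clones EV7, EV12, EV9 and EV18 were hybridised on arrays 1 to 4 against 1 pool of NT (Non Targeting) clones raised with the empty vector. MUC4-KD cells were made by infection with a pRetroSuper retroviral plasmid against MUC4 and were hybridised on 4 arrays against RNA of Mock clones, which carried the empty plasmid and were selected with G418 like the MUC4-KD cells. All the cells compared were thus drug-selected clones of a single line, isolated by limiting dilution. The methods state 4 clones for each knockdown and a pool of 4 control clones, but the labels do not name the MUC4-KD clones. The RNA labelled MUC4-KD was in Cy3 on arrays 1 and 2 and in Cy5 on arrays 3 and 4. If any 2 of these arrays held a single clone, fewer than 4 clones would stand behind the 4 values. The dyes were balanced, with 2 arrays of each experiment in either orientation, and the values below are log2 ratios of knockdown over control, as labelled, numbered by array.

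Cells of an epithelium are held together by E-cadherin, the product of CDH1, and by EpCAM. In EMT, factors of the SNAI and ZEB families bind E-box sequences in the promoters of epithelial genes and repress them, and mesenchymal proteins such as vimentin and N-cadherin, the products of VIM and CDH2, are gained. OVOL1 and GRHL2 are transcription factors that oppose this programme, ESRP1 is an RNA-binding protein that sets the epithelial pattern of alternative splicing, and ELF3 is an ETS factor of epithelia. Pancreatic ductal tumours can hold cells at any point between both states.

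The E-box is shown here in the promoter of ELF3, an epithelial member, beside that of VIM, a mesenchymal member, because both genes were measured on all 8 arrays. The 250 bases before the RefSeq start site (GRCh38.p14) are given 5′ to 3′ on the plus strand, at chr1:202010337-202010586 for ELF3 and chr10:17227991-17228240 for VIM, and the capitals mark CACCTG, the E-box core that SNAI and ZEB factors bind.
ELF3: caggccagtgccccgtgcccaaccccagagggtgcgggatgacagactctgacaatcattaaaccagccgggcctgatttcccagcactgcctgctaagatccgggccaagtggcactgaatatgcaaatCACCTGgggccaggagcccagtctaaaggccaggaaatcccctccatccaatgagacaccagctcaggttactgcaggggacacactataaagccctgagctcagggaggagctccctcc
VIM: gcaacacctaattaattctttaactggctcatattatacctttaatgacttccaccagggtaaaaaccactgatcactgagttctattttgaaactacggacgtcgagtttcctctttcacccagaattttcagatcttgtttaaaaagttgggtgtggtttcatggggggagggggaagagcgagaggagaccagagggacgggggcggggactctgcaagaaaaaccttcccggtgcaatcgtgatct
The ELF3 promoter held 1 copy of CACCTG and the VIM promoter none, searched on both strands (CACCTG or CAGGTG). The same letters were held by 17.5% of 35116 promoters of this length. AACCGGTT, the site of Grainyhead-like factors such as GRHL2, was in neither, and was held by 0.117% of all promoters. Of the 7 listed promoters of ZEB1, 2 held the E-box, and neither of the 2 of CDH2 did. No binding was measured on these arrays.

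The median spot signal of a channel lay between 100 and 593, 56.7% to 74.2% of the probes were well above background, and no spot was saturated. ErbB2-KD array 2 was the brightest, and correlated with the other ErbB2-KD arrays at r = 0.20 to 0.39 over all probes, where arrays 3 and 4 correlated at 0.72. MUC4-KD array 4, whose control channel was the dimmest of all, correlated with the other MUC4-KD arrays at r = 0.33 to 0.53, against 0.68 to 0.83 among those. Of the ductal markers, KRT19, KRT7 and MUC1 were above background in every RNA, while CFTR was above it in none. Of the fibroblast markers, FAP and THY1 were above background in every RNA, and DCN and PDGFRB in none. CD14 and CD68, among the leukocyte markers, were above it in every RNA, and PTPRC on 1 array. VWF of the endothelial and CHGA of the endocrine markers were above background on most or all arrays, and no acinar marker was above it on all arrays of any RNA. The target gene ERBB2, by its brighter probe, was below 0 in ErbB2-KD on 4 of 4 arrays. Its mean log2 ratio of -0.40 ± 0.12 (SD, n = 4) did not pass the test (adjusted p = 0.145, limma). The other probe of ERBB2 had a mean of 0.04 and was dim. Its median signal was 4.73 times background in ErbB2-KD and 3.29 times in NT. The study reported a nearly complete loss of ErbB2 protein in its ErbB2-KD clones by Western blot, and lower ErbB2 RNA by qRT-PCR.

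The check of MUC4 went against its label. The 4 probes of MUC4 had mean log2 ratios of 0.27 to 1.84 in the RNA labelled MUC4-KD over that labelled Mock, where a knockdown of this gene would give values below 0. Of these, 2 were called higher (1.84 ± 0.57, adjusted p = 0.008, and 1.34 ± 0.84, adjusted p = 0.035, limma). The probe at 1.34 was dim in the labelled Mock RNA, at 2.4 to 4.1 times background. The brightest of the 4 was not called (0.27 ± 0.23, adjusted p = 0.167) and lay below 0 on array 4. The study reported loss of MUC4 protein in its MUC4-KD clones by Western blot. It also reported lower MUC4 RNA by qRT-PCR, in the direction it gives for its arrays. The RNAs of this experiment are therefore named as labelled throughout, and each direction rests on those labels. The study's own gene list for this experiment gives OVOL1 and ESRP1 the opposite direction to the one found here. With the labels turned, every log2 ratio of this experiment would change its sign and keep its size, but a difference between the experiments would change its size as well.

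The 7 epithelial and mesenchymal genes CDH1, EPCAM, OVOL1, GRHL2, ELF3, ESRP1 and VIM were well above background on all 4 arrays of each RNA by 8 probes, and these entered the tests. CDH2, SNAI2 and ZEB1 did not enter a test in either experiment, and the second probe of OVOL1 (A_23_P326700) was above background on no array. CDH2 (A_23_P38732) was above background on 2 ErbB2-KD arrays and in no other RNA, with a signal of 1.33 to 13.1 times the local background in ErbB2-KD and 0.97 to 4.52 times in NT. ZEB1 (A_23_P202013) was above background on 1 ErbB2-KD array only, with a signal of 1.61 to 15.9 times background in ErbB2-KD and 1.1 to 4.63 times in NT. The array with the highest values of both genes was the bright array 2, on which the median probe of the ErbB2-KD channel was at 20.0 times background. In the MUC4 experiment both genes stayed between 1.23 and 3.12 times background in either RNA. SNAI2 (A_23_P169039), which encodes Slug, was above background on 3 ErbB2-KD arrays and 0 of NT, and on 2 arrays in the RNA labelled Mock and 0 in that labelled MUC4-KD. Its signal was 2.06, 14.2, 3.10 and 2.33 times background in ErbB2-KD on arrays 1 to 4 and 2.13, 4.47, 2.11 and 2.31 times in NT. No fold is given for these genes.

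**Figure D1:**
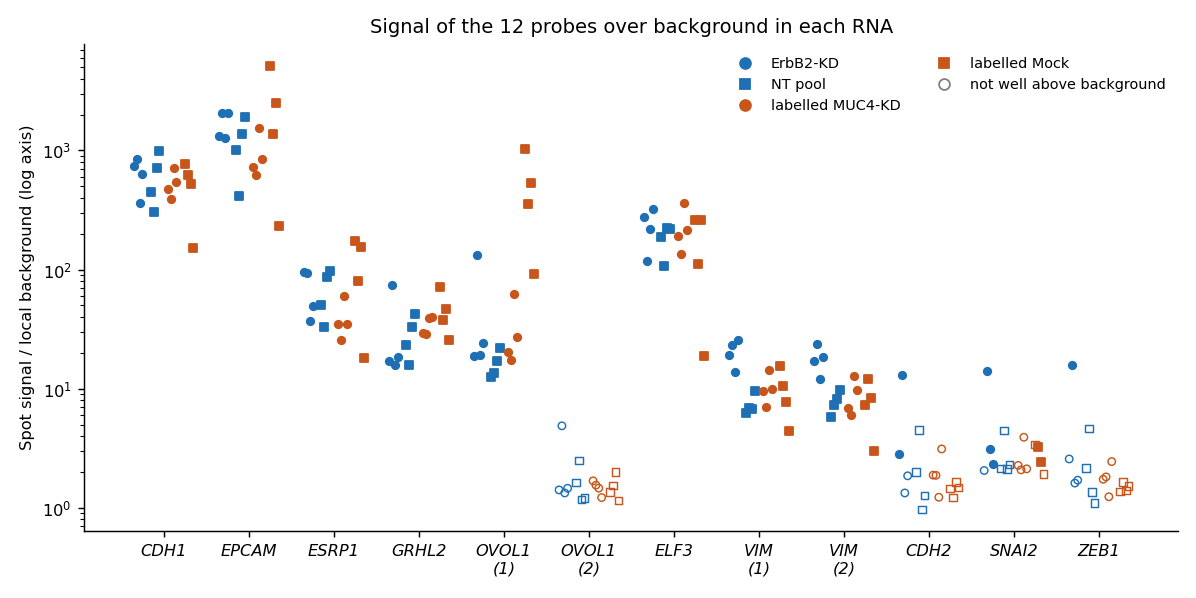
Spot signal over local background (log axis) of the 12 probes of the 10 genes in each of the 4 RNAs, with 1 point per array; open symbols are not well above background. CDH1, EPCAM and ELF3 were above background on every array, OVOL1 (1) lay between 92.4 and 1031 in the RNA labelled Mock and between 17.3 and 62.5 in that labelled MUC4-KD, and CDH2, SNAI2 and ZEB1 were mostly open symbols. Heights of different probes cannot be compared.

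The comparison of ErbB2-KD with NT asked what the loss of the receptor does to these genes. None of the 7 tested genes passed the test across all probes: 0 of 8 probes were called at an adjusted p under 0.05 (limma), where 1.43% of all 23869 tested probes were called (0.549% higher and 0.884% lower), and 4 of the 8 had an unadjusted p under 0.05, where 4307 of all 23869 probes did. VIM, EPCAM and OVOL1 had mean log2 ratios of 0.67 to 0.94 and were above 0 on 4 of 4 arrays each, while CDH1, the central adhesion gene, was close to 0. The median of the 8 probes was 0.41, against -0.01 over all tested probes. A test of each probe by its own spread alone, with the same adjustment, called 0 of all 23869 probes. It was not the GeneSpring computation of the study, which was not run here. Under the rule of at least 2-fold at an unadjusted p under 0.01, 0 of the 8 probes passed, where 2.40% of all probes did. The ratio is tested against 1 control pool, so the spread between control clones is left out.

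In the MUC4 experiment, OVOL1 and ESRP1 had mean log2 ratios well below 0 in the RNA labelled MUC4-KD, at -3.40 and -1.01, while CDH1 was above 0 on 4 of 4 arrays (mean 0.32) without passing the test. Without OVOL1, whose value chose it, 1 of the other 6 tested genes was called, ESRP1, at a mean log2 ratio of -1.01 ± 0.48 (SD, n = 4), where 20.5% of all 25047 tested probes were called and 8.48% were called lower. By the 2-fold rule the same gene alone passed, where 6.15% of all probes did. Neither the structural genes CDH1, EPCAM and VIM nor the regulators ELF3 and GRHL2 passed the test. The median of the 8 probes, OVOL1 included, was 0.05, against 0.01 over all tested probes.

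**Figure D2:**
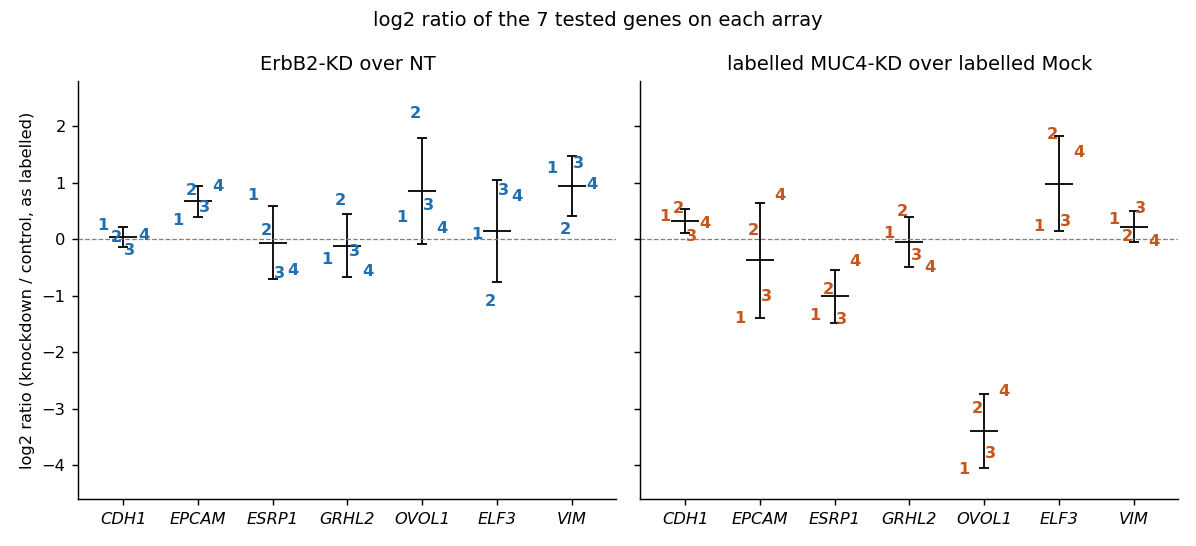
Log2 ratio of the 7 tested genes, by their brightest probe, for ErbB2-KD over NT (left) and for the RNA labelled MUC4-KD over that labelled Mock (right); each digit is the array of that number, and the lines are the mean ± SD of 4 arrays. CDH1 stays near 0 in the left panel and is above 0 on 4 of 4 arrays in the right one, VIM is above 0 on 4 of 4 ErbB2-KD arrays, and OVOL1 lies between -4.08 and -2.69 in the right panel only.

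CDH1 (A_23_P206359) encodes E-cadherin, the main adhesion molecule of epithelial junctions. Its log2 ratio was 0.24, 0.03, -0.20 and 0.06 on ErbB2-KD arrays 1 to 4, on both sides of 0. The mean was 0.03 ± 0.18 (SD, n = 4; adjusted p = 0.921, limma), with a 95% interval of -0.26 to 0.33. Its signal was 360 to 847 times background in ErbB2-KD and 306 to 995 times in NT, and these ranges overlap. As labelled, the ratio of MUC4-KD was 0.40, 0.54, 0.04 and 0.27, above 0 on every array of the experiment. The mean of 0.32 ± 0.21 did not pass the test (adjusted p = 0.114), and its interval of 0.01 to 0.62 leaves out a change of 2-fold in either direction.

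EPCAM (A_23_P91081) encodes the epithelial cell adhesion molecule, a surface protein used to recognise carcinoma cells. In ErbB2-KD its log2 ratio was 0.33, 0.87, 0.56 and 0.92 on arrays 1 to 4. All of the arrays lay above 0, at a mean of 0.67 ± 0.28 (SD, n = 4) that missed the threshold (adjusted p = 0.088, limma). In the RNA labelled MUC4-KD it was -1.41, 0.16, -1.02 and 0.77, so that arrays 1 and 3 lay below 0 and arrays 2 and 4 above it. The mean of -0.38 ± 1.01 was smaller than the spread between arrays (adjusted p = 0.477). The signal in the RNA labelled Mock ranged from 231 times background on array 4 to 5099 times on array 1, whereas that of the RNA labelled MUC4-KD stayed between 619 and 1530 times.

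OVOL1 (A_23_P202810) encodes a zinc finger repressor of mesenchymal genes. Its log2 ratio in the RNA labelled MUC4-KD was -4.08, -3.01, -3.80 and -2.69 on arrays 1 to 4, at a mean of -3.40 ± 0.65 (SD, n = 4). By size this was rank 15 of 25047 tested probes, which restates the choice of the gene. The signal of the probe was 20.4, 17.3, 62.5 and 27.3 times background in the RNA labelled MUC4-KD, and 1031, 356, 530 and 92.4 times in that labelled Mock. In these values, from the experiment that chose the gene, the labelled Mock RNA was higher on each of the 4 arrays. The ranges of both RNAs did not overlap. In the other experiment the same probe gave 12.6 to 21.8 times background in NT and 18.8, 133, 19.2 and 24 times in ErbB2-KD. These signals are not normalised between arrays and dyes, so heights of different arrays are only set side by side. For ErbB2-KD, which the choice of the gene did not use, the log2 ratio was 0.38, 2.23, 0.59 and 0.19. The mean of 0.85 ± 0.94 did not pass the test (adjusted p = 0.275, limma), and without array 2, the clone EV12, it was 0.38. In bulk RNA, fewer cells that express a gene and less of its RNA per cell cannot be told apart.

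ESRP1 (A_23_P259127), the epithelial splicing regulator, had log2 ratios of -1.35, -0.90, -1.42 and -0.39 on arrays 1 to 4 in the RNA labelled MUC4-KD. All 4 arrays were below 0, and array 4 was nearest to it. The mean of -1.01 ± 0.48 passed the test (adjusted p = 0.0232, limma) and corresponds to a 2.02-fold lower ratio. The signal of the labelled Mock RNA was 174, 79.6, 156 and 18 times background, and that of the labelled MUC4-KD RNA 35, 25.5, 59.6 and 35.1 times. On array 4 the labelled Mock RNA was the lower of both before normalization, and the median probe of that array was at 6.41 times background in the labelled MUC4-KD RNA and at 2.42 in the labelled Mock RNA. Without array 4 the mean was -1.22 (adjusted p = 0.004), and leaving out array 1, 2 or 3 ended the call (adjusted p = 0.101, 0.079 and 0.128). In ErbB2-KD the ratio was 0.77, 0.15, -0.61 and -0.55. Arrays 1 and 2, with ErbB2-KD in Cy5, lay above 0 and arrays 3 and 4, with ErbB2-KD in Cy3, below it. The mean was -0.06 ± 0.65 (adjusted p = 0.933).

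GRHL2 (A_24_P35228), a Grainyhead-like activator of CDH1 and other junction genes, showed no called change. Its log2 ratio was -0.35, 0.68, -0.22 and -0.57 in ErbB2-KD, with array 2 alone above 0. The mean was -0.11 ± 0.55 (adjusted p = 0.845, limma). The ratio of the RNA labelled MUC4-KD was 0.10, 0.49, -0.29 and -0.50, at a mean of -0.05 ± 0.44 (adjusted p = 0.857). The 95% intervals of -0.65 to 0.42 and -0.50 to 0.39 bound the size of either change.

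ELF3 (A_23_P104188), the epithelial ETS factor whose promoter is printed above, varied between arrays. Its log2 ratio was 0.09, -1.11, 0.86 and 0.75 in ErbB2-KD, where array 2 was the only one below 0. The mean was 0.15 ± 0.90 (adjusted p = 0.867, limma), and it was 0.57 without array 2. In the RNA labelled MUC4-KD the ratio was 0.22, 1.86, 0.31 and 1.54. Every array lay above 0, with arrays 2 and 4 well above arrays 1 and 3, and the mean of 0.98 ± 0.84 missed the threshold (adjusted p = 0.069). With the slide as a block the mean was 1.22 and it passed (adjusted p = 9e-04), under a setting that called 9571 of 25016 probes; this was 1 of 12 processing alternatives, and ELF3 was called under none of the others.

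VIM encodes vimentin, the intermediate filament protein of mesenchymal cells, and was read by 2 probes. The brighter (A_23_P161190) had log2 ratios of 1.26, 0.18, 1.34 and 0.96 in ErbB2-KD, and the other (A_23_P161194) 1.06, 0.26, 1.23 and 0.94. Both probes put all arrays above 0 and array 2 lowest. The means were 0.94 ± 0.53 and 0.87 ± 0.43 (SD, n = 4; adjusted p = 0.104 and 0.086, limma). Without array 2 the brighter probe was at 1.19 and was called (adjusted p = 0.028), as it was at its mean of 0.94 when the spread was estimated from all 8 arrays (adjusted p = 0.025). These settings called 2.04% and 4.70% of all probes. They were 1 of 4 fits without an array and 1 of 11 processing alternatives, and the brighter probe was called under none of the others. The signal of this probe was 13.7 to 25.5 times background in ErbB2-KD and 6.26 to 9.64 times in NT, without overlap. These signals are not normalised between dyes and arrays. On array 2 they were 23.4 and 6.91 times background at a log2 ratio of only 0.18. The median probe of that array was at 20.0 and 7.58 times background in ErbB2-KD and NT. In the RNA labelled MUC4-KD the ratio was 0.34, 0.05, 0.55 and -0.04 by the brighter probe, at a mean of 0.22 ± 0.27 (adjusted p = 0.268). Its signals there, 7 to 14.5 times background, overlapped those of the RNA labelled Mock, 4.44 to 15.6 times.

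The experiments were compared as the MUC4-KD mean minus the ErbB2-KD mean over all 8 arrays. They had different controls, NT and Mock, so this difference also holds the difference between those controls. Of the 7 probes of the tested genes other than OVOL1, 0 were called (limma) and 4 had an unadjusted p under 0.05, where 9.91% of 25835 probes were called (6.49% higher and 3.41% lower) and 28.5% had an unadjusted p under 0.05. The test by each probe's own spread also called 0 of these and 546 of all 25835 probes. Of the 7 probes 0 passed the 2-fold rule, against 6.83% of all probes. EPCAM differed by -1.05 (adjusted p = 0.154), ESRP1 by -0.95 (adjusted p = 0.109), ELF3 by 0.83 (adjusted p = 0.310) and VIM by -0.71 (adjusted p = 0.119). CDH1 differed by 0.28 (adjusted p = 0.291) and GRHL2 by 0.06 (adjusted p = 0.913). ESRP1 was thus called in 1 experiment, but its difference from the other experiment was not. Without ErbB2-KD array 2 both probes of VIM were called (brighter probe -0.97, adjusted p = 0.027), where 7.41% of all probes were. Without MUC4-KD array 4 EPCAM (-1.43, adjusted p = 0.027) and ESRP1 (-1.16, adjusted p = 0.047) were called, where 19.6% of all probes were. Leaving out any other array called 0 of the 7. For OVOL1 the difference was -4.24, given with no test. With the MUC4-KD labels turned, a fit chosen after seeing the data, it would be 2.55, and both probes of VIM would be called (brighter probe -1.16, adjusted p = 0.022), where 17.2% of all probes would.

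Each of the 3 slides carried both experiments, so the difference could be read within a slide. Slide 1 held only ErbB2-KD array 2 and MUC4-KD array 4. Slide 2 held 2 ErbB2-KD arrays and 1 MUC4-KD array, and slide 3 held 1 and 2. On every slide at least 1 of the experiments is thus a single array. For OVOL1, as a description, it was -4.92, -3.49 and -4.13, and for ESRP1 -0.54, -0.98 and -0.83, of the same sign on each slide. VIM gave -0.22, -1.25 and -0.52 and EPCAM -0.10, -0.29 and -2.14, also below 0 on each slide but of uneven size. CDH1 gave 0.24, 0.52 and 0.16. ELF3 (2.64, 1.39 and -0.48) and GRHL2 (-1.18, 0.77 and 0.47) changed sign between slides.

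Other genes of the same programmes were read from lists. These were written with earlier results of these data known, so their shares are a description. The epithelial lists hold 51 further genes, 12 regulators and 39 genes of adhesion and polarity, of which 46 were tested by 67 probes. In ErbB2-KD 0 of these probes were called (limma) and 16 had an unadjusted p under 0.05 (4307 of all 23869 probes did). Their mean ratio was above 0 for 51 of the 67, where 48.8% of all probes were, at a median of 0.15. For the RNA labelled MUC4-KD 6 probes were called higher and 3 lower, 13.4% of the 67, below the 20.5% of all probes, and the median was 0.01. The keratin KRT19 (1.02 ± 0.12, adjusted p = 0.006, limma) and the polarity gene PARD6B (0.76 ± 0.26, adjusted p = 0.019) were among the adhesion and polarity genes called higher. The tight junction claudin CLDN3 (-1.55 ± 1.08, adjusted p = 0.043) and the membrane protease PRSS8 (-0.60 ± 0.20, adjusted p = 0.027) were called lower. Among the regulators GRHL3, a relative of GRHL2, was not well above background in the RNA labelled MUC4-KD on any array and was at least 2.40-fold lower there than in that labelled Mock, a bound from the normalised channel values that is open to dye bias. It entered the test only through the RNA labelled Mock, where it is high, so its call is no support for the direction of the list. OVOL2, the nearest relative of OVOL1 in the list, was at 0.52 ± 0.32 and did not pass the test (adjusted p = 0.055).

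The mesenchymal lists hold 49 further genes, 12 EMT factors and 37 genes of matrix, cytoskeleton and mesenchymal surface. In ErbB2-KD 3 of 48 tested probes were called, 1 higher and 2 lower (6.25%, against 1.43% of all probes), and the median was -0.02. The receptor kinase AXL was higher at 1.49 ± 0.47 (adjusted p = 0.033, limma). COL5A1, a fibrillar collagen, was lower by both its probes, at -3.05 ± 0.63 (adjusted p = 0.014) by the brighter and at least 2.82-fold lower by the other, which was not well above background in ErbB2-KD. That second probe is 1 of the 3 calls and entered the test only through NT, where it is high. In the RNA labelled MUC4-KD 9 of 51 probes were called higher and 6 lower (29.4%, against 20.5% of all probes). The median was 0.46, with 37 of the 51 above 0, where 50.8% of all probes were. The EMT factor ZEB2, 1 of the 37, was above background on 4 arrays in the RNA labelled MUC4-KD and 0 in that labelled Mock. It entered the test only through the RNA where it is high, so its sign is no support for the direction of the list. The largest called changes were those of the matrix protein TGFBI (4.05 ± 0.35, adjusted p = 0.001), the collagen cross-linking enzyme LOX (2.85 ± 1.41, adjusted p = 0.019) and the hyaluronan receptor CD44 (1.74 ± 0.07, adjusted p = 0.002). The matrix protein THBS1 (-1.83 ± 0.34, adjusted p = 0.004) and the actin-binding TAGLN (-0.80 ± 0.25, adjusted p = 0.016) were called lower. Among the EMT factors TWIST1 (1.00 ± 0.26, adjusted p = 0.010) and SNAI1 (0.57 ± 0.33, adjusted p = 0.048) were called higher and KLF8 (-0.58 ± 0.17, adjusted p = 0.026) lower. The second probe of TWIST1 was above background on no array. The joined fibroblast markers, which share genes with this list, summed to 155 to 232 times background in the RNA labelled MUC4-KD and 57.5 to 190 times in that labelled Mock, and to 65.1 to 314 and 72.3 to 154 times in ErbB2-KD and NT, and their part in these results was not tested.

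**Figure D3:**
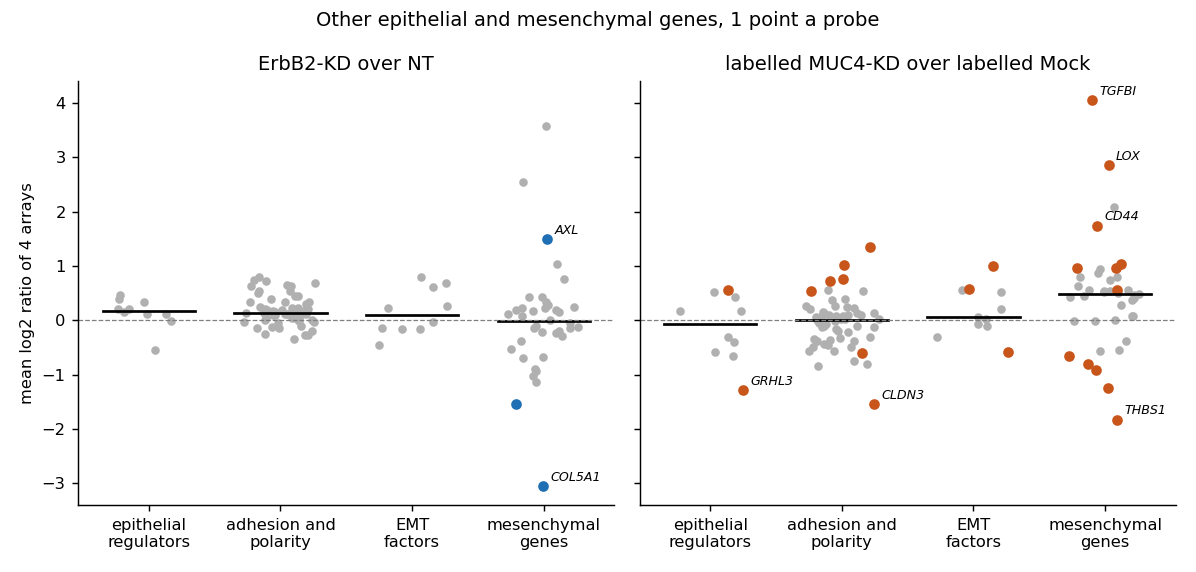
Mean log2 ratio over 4 arrays of each tested probe of the 4 gene lists, for ErbB2-KD over NT (left) and the RNA labelled MUC4-KD over that labelled Mock (right); coloured points were called (adjusted p under 0.05), grey ones were not, and bars are list medians. On the left the called points are AXL and both probes of COL5A1, and on the right the mesenchymal genes reach from -1.83 (THBS1) to 4.05 (TGFBI).

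Between the experiments the differences of several of these genes were called (limma over 8 arrays), all of them with the MUC4-KD labels as given: COL5A1 by 5.14 (adjusted p = 0.006), TGFBI by 3.62 (adjusted p = 0.003) and LOX by 3.55 (adjusted p = 0.027) in the direction of the RNA labelled MUC4-KD. THBS1 differed by -5.40 (adjusted p = 0.008), with 3.57 ± 1.97 in ErbB2-KD, which was not called there (adjusted p = 0.076). CLDN3 by -2.27 (adjusted p = 0.025), AXL by -1.42 (adjusted p = 0.011) and KLF8 by -1.38 (adjusted p = 0.004) also differed, and so did GRHL3, which was near background in several RNAs. FOXA1, a pioneer factor of epithelial and endodermal genes, was called in neither experiment but differed between them by -0.86 (adjusted p = 0.044), with 0.47 ± 0.39 in ErbB2-KD and -0.40 ± 0.26 in the RNA labelled MUC4-KD, on opposite sides of 0 on all arrays. TWIST1, CD44 and KRT19, called in the MUC4 experiment, did not differ by this test (adjusted p = 0.113, 0.256 and 0.276). All of these differences also hold the difference between the NT and Mock controls.

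The 5 symbols whose ratios followed those of OVOL1 most closely over the 8 arrays, among 11682 symbols tested in both experiments, included SRM (Pearson r = 0.989), HERC6 (0.988), PUS1 (0.985) and FBXO33 (0.984). These values are a description: the 8 points fall into both experiments, and all 5 symbols had a lower mean in the RNA labelled MUC4-KD over labelled Mock (-2.37 to -0.27) than in ErbB2-KD over NT (-0.28 to 0.44). For CDH1, whose ratios spanned a narrow range, the closest were TEPSIN (0.982), CDADC1 (0.968), HCAR3 (0.952), RPL23A (0.939) and COQ4 (0.929). No gene was among the closest 5 of both.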

How the data were processed

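Gene expression was measured on 8 Agilent human arrays of 2 colours, 4 per knockdown. The authors scanned them and deposited the output of Agilent Feature Extraction (10.5 in the submitters' processing notes): for each channel the median pixel intensity of spot and background, and a log10 ratio of Cy5 over Cy3 that the software had background-subtracted and dye-normalised. They went on in GeneSpring; the deposited table of log10 ratios equals the Feature Extraction ratios turned to knockdown over control, so it was no separate alternative.

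From the intensities, background was corrected by normexp (offset 50), arrays were normalised by loess, outlier spots were left out, and spots of a probe were averaged (41000 probes from 43376 spots). The labels' dyes set each ratio's direction (labelled knockdown over labelled control). A probe was tested if well above background on all 4 arrays in either RNA. Mean log2 ratios were set against 0 by limma 3.58.1 in R 4.3.3 and Benjamini-Hochberg adjustment over all tested probes, and a call is an adjusted p under 0.05. The control pool counts as 1 sample. With 4 arrays the smallest p of an exact sign-flip test is 0.125. The number of arrays limits the precision. Of the probes, 25398 have a gene symbol through their accession. The value of a gene is that of its brightest tested probe, with other probes beside it; of each list, the 3 called genes with the largest change in each direction were named, and OVOL2 and FOXA1, outside this rule, were chosen after their values were seen. A few genes that the rule takes in are not reported here. The 10 genes, the lists and the cell type markers (ductal, acinar, endocrine, fibroblast, leukocyte, endothelial) were chosen with earlier results of these data known. Replicate numbers did not pair the arrays. The steps were tested on simulated data. Alternatives were another offset, the Feature Extraction ratios, median centring, other filters, a dye term, slide and replicate blocks and an intensity trend. Others were 1 fit over 8 arrays, a t-test, a 2-fold rule at an unadjusted p under 0.01, gene means, averaged pairs and leaving out each array. The differences with the MUC4-KD labels turned were added after seeing the data.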

Additional observations from a re-analysis of the deposited data

Results flagged for a closer look

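The ratios of OVOL1 lay on opposite sides of 0 in both experiments. It was above 0 on 4 of 4 ErbB2-KD arrays (0.19 to 2.23) and below 0 on 4 of 4 arrays of the RNA labelled MUC4-KD (-4.08 to -2.69), and the means differed by -4.24. This difference was not tested, since the gene was chosen for its value in the MUC4 experiment, whose direction rests on labels that the check of MUC4 went against. With those labels turned, both experiments would lie above 0 and the difference would be 2.55. Either difference also holds that between the NT and Mock controls. Among the 16 groups of 4 arrays of the tested probes, no single array stood apart by Dixon's test.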

How the results depend on the processing

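For the members, the counts of called probes were 0 in ErbB2-KD, 1 in the RNA labelled MUC4-KD (without OVOL1) and 0 for the difference, and the joined epithelial and mesenchymal lists gave 0 and 3 in ErbB2-KD and 9 and 15 in the MUC4 experiment. Median centring left 0 calls in every one of these, and over all probes 31 calls in ErbB2-KD and 1 in the MUC4 experiment, where 342 and 5131 were called as reported. Without a filter on dim probes the MUC4 member count was 0 and the mesenchymal counts were 0 in ErbB2-KD and 9 in the MUC4 experiment (0.122% and 7.15% of all probes). With Feature Extraction ratios the epithelial counts were 1 and 16, the mesenchymal count in ErbB2-KD 6 and the difference 1 (ESRP1), with 2.04%, 28.1% and 15.8% of all probes called. In the MUC4 experiment the dye term gave 14 epithelial calls (26.9% of all probes) and the slide block 2 members, 24 epithelial and 32 mesenchymal probes (38.3%). There, averaging arrays 1 with 3 and 2 with 4, which treats each pair as 1 sample, gave 5 epithelial calls (14.4%). The labels do not give this pairing. Over all probes arrays 1 and 3 correlated at r = 0.82 and arrays 2 and 4 at 0.36, against 0.83 for arrays 1 and 2. The intensity trend gave 5 mesenchymal calls in ErbB2-KD, and 1 fit over all 8 arrays gave 2 members (both probes of VIM), 3 epithelial and 6 mesenchymal probes there (2.29% and 4.70% of all probes). The t-test gave 0 mesenchymal calls in ErbB2-KD and, in the MUC4 experiment, 0 members, 0 epithelial and 2 mesenchymal probes, with 0 and 106 calls over all probes. The 2-fold rule at an unadjusted p under 0.01 gave 7 mesenchymal calls in ErbB2-KD and 4 epithelial and 7 mesenchymal ones in the MUC4 experiment (2.40% and 6.15% of all probes). Leaving out 1 array gave 0 to 2 members, 0 epithelial and 0 to 4 mesenchymal probes in ErbB2-KD, 0 to 1, 0 to 22 and 3 to 24 in the MUC4 experiment (the highest without array 4), and 0 to 2 for the difference. Over all probes this gave 0 to 487, 154 to 9347 and 638 to 5060 calls. The replicate numbers did not pair the arrays (same-number correlations of deviations -0.24 to -0.05, and 0 of 4 arrays were closest to their own number), and the replicate block left 0 members called for the difference (584 of all 25835 probes, against 2559). The cause of these changes was not tested.

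ESRP1 in the RNA labelled MUC4-KD kept its direction under 12 processing alternatives and its call under 9 (-1.24 to -0.89, adjusted p = 0.002 to 0.708, limma and the t-test). OVOL1 there ranged from -3.75 to -3.21. GRHL2 there was 0.015 under median centring, and its difference was -0.10 with Feature Extraction ratios. Leaving out 1 array turned the sign of CDH1 (-0.035 to 0.11), ESRP1 (-0.34 to 0.12), ELF3 (-0.090 to 0.57) and GRHL2 (-0.38 to 0.038) in ErbB2-KD, of GRHL2 in the MUC4 experiment (-0.23 to 0.10) and of its difference (-0.12 to 0.33). With the MUC4-KD labels turned the log2 ratios were -0.32 for CDH1, -0.22 for VIM, 3.40 for OVOL1, 0.051 for GRHL2, 1.01 for ESRP1, -0.98 for ELF3 and 0.38 for EPCAM. Turned labels in the difference, an alternative chosen after seeing the data, gave 2 called member probes (both of VIM, -1.16 by the brighter) and 4433 of all probes. The difference was then -0.35 for CDH1, 2.55 for OVOL1, 1.08 for ESRP1 and -1.13 for ELF3, each of the opposite sign, and 0.16 for GRHL2 and -0.29 for EPCAM, of the same sign. Dim probes limit CDH2, SNAI2 and ZEB1, for which these arrays give no ratio.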
